A study of Mus musculus with 38 samples.

Results

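The MHC class I heavy chain genes H2-K1, H2-D1 and H2-Bl, their light chain B2m, and the peptide supply genes Tap1, Tap2, Tapbp, Psmb8, Psmb9 and Nlrc5 were followed through mouse bone marrow and sorted osteoclast precursors by RNA sequencing. These 10 genes were found by mapping the Ensembl identifiers of the deposited tables to their symbols, and all 10 were present among 47729 genes of the whole marrow tables and 46679 genes of the precursor tables. All mice carried the strain label C57BL/6, were female and were 6 to 7 weeks old, and the protocols also name nude mice for other experiments. The combined group received zoledronic acid (ZA), a bisphosphonate that binds bone and acts on osteoclasts, at 100 µg/kg into the peritoneum. It then received recombinant human G-CSF, the cytokine that drives neutrophil production, at 50 µg/kg on 3 consecutive days, beginning 2 days after ZA. The other groups received G-CSF alone, ZA alone or nothing, and the study compared the treatments pairwise. Whole marrow gave 9 libraries (2 combined, 3 G-CSF, 2 ZA and 2 untreated), with replicate numbers taken from the labels. Precursors were marrow cells sorted for CD115 after cells bearing lineage markers (TER119, CD45R, CD11b, CD3 and Ly-6G/Ly-6C) were set aside. In sequencing run 1 they gave 8 libraries (3 combined, 3 G-CSF, 1 ZA and 1 untreated).

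MHC class I molecules display peptides from inside the cell to CD8 T cells and are read by NK cells. A polymorphic heavy chain pairs with the invariant light chain beta-2 microglobulin. Peptides are cut by the proteasome, in which the inducible subunits Psmb8 and Psmb9 can replace constitutive ones, and are pumped into the endoplasmic reticulum by Tap1 and Tap2, where tapasin (Tapbp) tethers the empty heavy chain to the pump. Nlrc5 is a transactivator that acts at class I promoters, and interferon induces most of these genes. Inbred mouse lines carry different haplotypes of this region, which differ in the sequence and number of the heavy chain genes.

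In GRCm38 coordinates of the GENCODE vM21 annotation, 8 of the 10 genes lay on chromosome 17. H2-K1 (ENSMUSG00000061232) spans chr17:33996017-34000347 on the minus strand and H2-D1 (ENSMUSG00000073411) chr17:35262730-35267499 on the plus strand. H2-Bl (ENSMUSG00000073406), a class I gene of the T region that is annotated as a polymorphic pseudogene, spans chr17:36080115-36084223 on the minus strand. Tapbp (ENSMUSG00000024308) lies at chr17:33915899-33929292. Psmb9 (ENSMUSG00000096727, chr17:34181987-34187764, minus strand), Tap1 (ENSMUSG00000037321, chr17:34187553-34197225), Psmb8 (ENSMUSG00000024338, chr17:34197721-34201454) and Tap2 (ENSMUSG00000024339, chr17:34203527-34216321) follow each other. B2m (ENSMUSG00000060802) is at chr2:122147686-122153083 and Nlrc5 (ENSMUSG00000074151) at chr8:94434356-94527272, both on the plus strand.

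The heavy chain genes are near-identical in stretches, which bears on every value given for them. Of the 31-base words in their annotated transcripts, 22.8% for H2-K1, 26.7% for H2-D1 and 21.3% for H2-Bl also occurred in another gene, against 4.62% for Tapbp, 1.34% for Tap2 and less for the other 5. H2-K1 and H2-D1 shared 358 such words. The longest identical runs between their coding sequences lie in exon 4, and 2 are shown because a read from inside them cannot be placed by sequence. The first, of 91 bases, is common to H2-D1 (chr17:35265911-35266001, plus strand) and H2-K1 (chr17:33997343-33997433, minus strand). The second, of 80 bases, is common to H2-Bl (chr17:36081391-36081470, minus strand) and to H2-D1 immediately upstream of the first (chr17:35265831-35265910, plus strand). H2-K1 holds the first 79 of these bases (chr17:33997435-33997513, minus strand), so H2-Bl, H2-D1 and H2-K1 all share them.
H2-D1 and H2-K1: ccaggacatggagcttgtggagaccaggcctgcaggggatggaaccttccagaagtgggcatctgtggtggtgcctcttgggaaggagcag
H2-Bl and H2-D1: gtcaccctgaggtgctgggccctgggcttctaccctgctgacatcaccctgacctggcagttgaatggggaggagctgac
The estimated counts split such reads between genes, and how a haplotype other than the annotated one would be split cannot be seen in the tables. B2m lies wholly within Patl2 on the opposite strand, Psmb9 and Tap1 overlap by 212 bases on opposite strands, and Tapbp overlaps Zbtb22 by 3422 bases on the same strand. The labels do not say whether the libraries kept strand, so overlapping transcripts are uncertain.

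Promoter windows of RefSeq GRCm38.p6, from 250 bases before to 50 bases after the transcript start, were found for 7 of the 10 genes. Those of H2-K1 (chr17:34000298-34000597, minus strand), H2-D1 (chr17:35262844-35263143, plus strand) and B2m (chr2:122147437-122147736, plus strand) are shown because these 3 genes were called higher with G-CSF in the results that follow. Capitals mark the NF-kappaB core motif GGGATTCCC in the H2-K1 and H2-D1 windows and the interferon-stimulated response motif GAAANNGAA in the B2m window, each searched on both strands.
H2-K1: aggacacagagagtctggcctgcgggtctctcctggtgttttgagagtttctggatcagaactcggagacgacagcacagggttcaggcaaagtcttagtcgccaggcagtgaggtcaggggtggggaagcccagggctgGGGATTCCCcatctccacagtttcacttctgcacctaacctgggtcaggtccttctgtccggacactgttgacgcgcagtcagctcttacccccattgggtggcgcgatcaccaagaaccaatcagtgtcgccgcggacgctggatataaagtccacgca
H2-D1: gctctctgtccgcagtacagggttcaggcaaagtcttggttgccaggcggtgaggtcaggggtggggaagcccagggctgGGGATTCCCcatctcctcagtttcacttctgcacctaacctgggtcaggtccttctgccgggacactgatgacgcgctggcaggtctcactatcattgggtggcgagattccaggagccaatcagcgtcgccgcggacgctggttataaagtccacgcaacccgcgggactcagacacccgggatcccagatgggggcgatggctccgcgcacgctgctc
B2m: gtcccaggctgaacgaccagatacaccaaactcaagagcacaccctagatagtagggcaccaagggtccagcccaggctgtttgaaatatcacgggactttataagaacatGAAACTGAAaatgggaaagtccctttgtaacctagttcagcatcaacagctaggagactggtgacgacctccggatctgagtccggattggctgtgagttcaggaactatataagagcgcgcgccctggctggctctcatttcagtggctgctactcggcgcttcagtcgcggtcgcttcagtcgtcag
In the windows shown, the NF-kappaB motif began at position −110 from the transcript start of H2-K1 and at −170 from that of H2-D1. A second annotated start of H2-K1 (window chr17:34000284-34000583) put the same motif at −124, so its position depends on the start taken. Of 32851 promoter windows, 116 (0.353%) held the motif. The interferon motif began at −139 in B2m and occurred in 8.56% of all windows. The Psmb8 window held the interferon-gamma motif TTCNNNGAA at −97, which 8.3% of all windows held. The H2-K1 and H2-D1 windows each also held TGACGC, searched as a half-site of cyclic AMP response elements, once and CCAAT in 2 places. Of all windows, 7.4% held TGACGC and 37.4% held CCAAT. No motif overlapped another, and these matches are descriptions of letters only.

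Total estimated counts were 6.24 to 16.2 M (mega) per whole marrow library (median 8.44 M) and 21 to 33.2 M per run 1 precursor library (median 27.4 M). Levels are estimated counts scaled to a common library size with TMM (CPM), or deposited TPM where genes are compared with each other, and adjusted p-values are from the edgeR quasi-likelihood test. Whether replicates came from different animals is not in the labels, and p-values then reflect only how far these samples scatter, which may be technical. In the untreated replicate 1 marrow library small RNA genes took 40% of the TPM, where the other 8 libraries gave them 7.96% to 15.2%, and its TPM were the lowest of the 9 for every gene here except H2-Bl. The libraries do not all match their labels. Of 18 run 2 libraries, 10 were closest to a run 1 library of the labelled cell source, 6 of the 15 labelled precursor were closest to whole marrow, and 2 of the 3 labelled whole marrow were closest to precursors. Run 2 was kept out of the main comparisons, which were planned on run 1 alone for the precursors. Genes known to differ between mouse strains, listed with earlier results of these data known, also divided the marrow libraries by treatment. Eno1b had 174 to 179 CPM in combined and 190 to 234 CPM in G-CSF marrow, against 0.967 to 2.61 CPM in ZA marrow and 0 in untreated marrow. Gvin1 was at 0 in all 5 combined and G-CSF libraries, against 33.9 to 57.7 CPM in ZA marrow and 44.2 to 98.0 CPM in untreated marrow. A difference in genetic background and an effect of G-CSF cannot be told apart in whole marrow, and this bears on every comparison of marrow with and without G-CSF. The 3 whole marrow libraries of run 1 were the same reads as untreated 2, G-CSF 2 and ZA 2 of the marrow tables (99.5% to 99.6% of genes within 1%) and were counted once.

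In G-CSF marrow, the heavy chains and their light chain were higher than in untreated marrow, and the tethering factor Tapbp was lower. H2-D1 had 2800, 2866 and 3340 CPM in G-CSF marrow (mean 3002 ± 295, SD, n = 3), against 994 and 835 CPM in untreated marrow (mean 914 ± 112, n = 2). All 3 G-CSF libraries stood above both untreated libraries, and the log2 change was 1.72 ± 0.16 (SE, adjusted p = 0.000262). H2-K1 had 866, 874 and 1048 CPM in G-CSF marrow, against 499 and 511 CPM in untreated marrow. The groups did not overlap, and H2-K1 had a log2 change of 0.88 ± 0.14 (adjusted p = 0.00585).

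**Figure D1:**
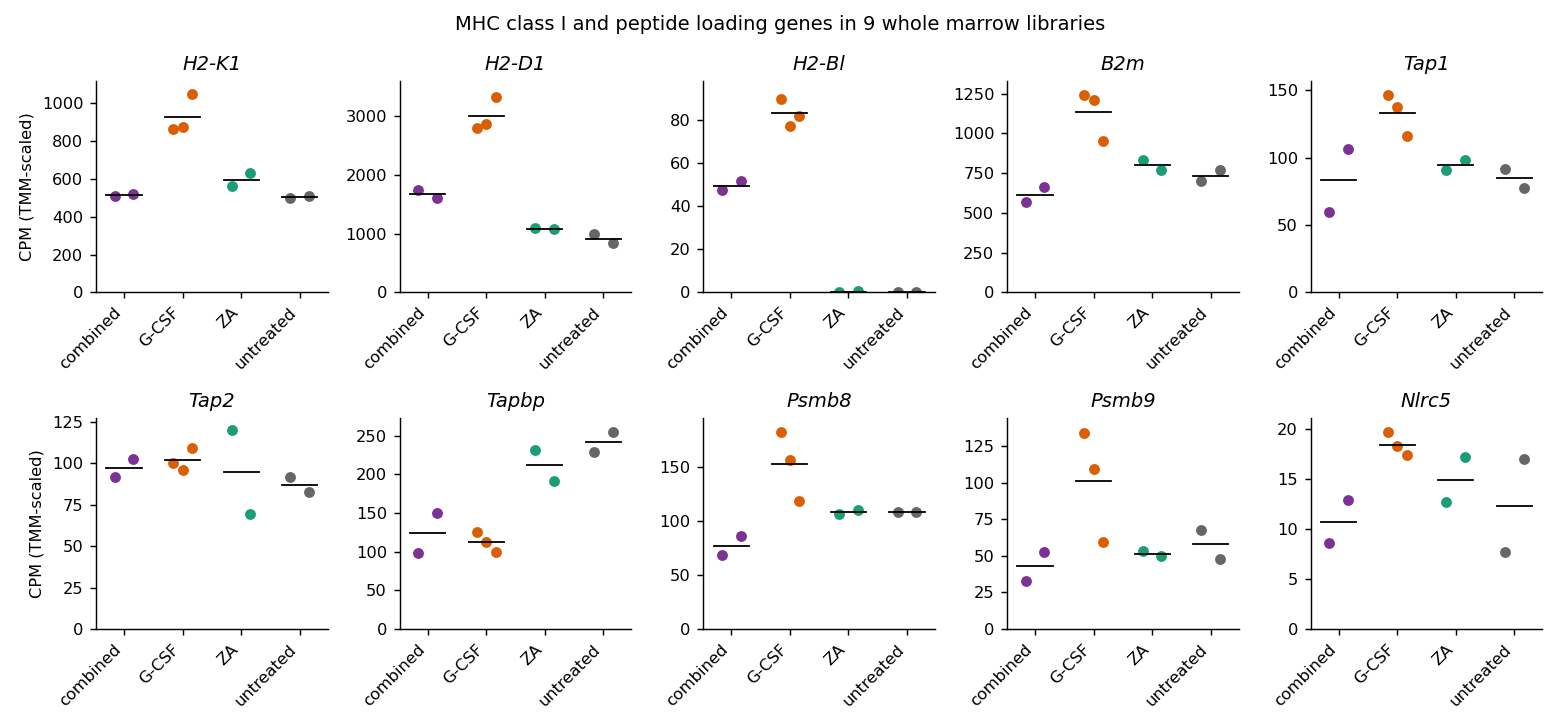
Level of each of the 10 genes in whole marrow (CPM after TMM scaling), 1 point per library, with treatment groups along the x axis and a line at each group mean. H2-D1 lies between 2800 and 3340 CPM in the 3 G-CSF libraries, against 835 and 994 CPM in untreated marrow, while Tapbp is lower in every G-CSF and combined library than in any ZA or untreated library.

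H2-Bl was the extreme case. It had 89.7, 77.3 and 81.9 CPM in G-CSF marrow and no count in either untreated library. The 3 G-CSF libraries held 3131 counts together, which is at least 288-fold higher than the 3 counts that 0 allows over the untreated group (adjusted p = 7.42e-06). In TPM, which allows genes to be compared, H2-Bl averaged 56.6 ± 4.94 in G-CSF marrow, beside 1300 ± 268 for H2-D1 and 475 ± 103 for H2-K1 in the same libraries. The gap between the groups was larger than the spread between replicates, and such floors cover counting error only.

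B2m, the light chain, had 1244, 1212 and 951 CPM in G-CSF marrow, against 698 and 772 CPM in untreated marrow. The groups did not overlap, and the log2 change was 0.63 ± 0.16 (adjusted p = 0.0382). This call rested on small margins: it was kept without G-CSF replicate 3 (adjusted p = 0.019) and was lost on leaving out any other of the 9 libraries, with adjusted p-values up to 0.138. Tapbp had 125, 112 and 99.4 CPM in G-CSF marrow, against 228 and 255 CPM in untreated marrow. Its log2 change was −1.10 ± 0.20 (adjusted p = 0.00804), and without untreated replicate 2 its adjusted p was 0.0512.

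The edgeR test did not call the remaining supply genes. Tap1 had 147, 138 and 116 CPM in G-CSF marrow and 91.7 and 77.5 CPM in untreated marrow (log2 change 0.66 ± 0.24, adjusted p = 0.1). Psmb8 had 182, 156 and 118 CPM in G-CSF marrow and 108 and 108 CPM in untreated marrow (0.49 ± 0.20, adjusted p = 0.134). For both genes every G-CSF library was above both untreated libraries. Psmb9 had 134, 109 and 59.5 CPM in G-CSF marrow and 67.5 and 48.1 CPM in untreated marrow, so its groups overlapped (0.81 ± 0.34, adjusted p = 0.155). Tap2, the partner of Tap1 in the peptide pump, had 100.2, 96.1 and 110 CPM in G-CSF marrow and 91.9 and 82.6 CPM in untreated marrow (0.22 ± 0.22, adjusted p = 0.532). Nlrc5 had 19.8, 18.3 and 17.4 CPM in G-CSF marrow and 7.70 and 17.01 CPM in untreated marrow, with an adjusted p of 0.294. With no filter on low counts edgeR called Tap1 (adjusted p = 0.0127) and Psmb9 (0.00206) higher, without G-CSF replicate 3 it called Psmb8 (0.0481) and Psmb9 (0.0402), and without combined replicate 1 or 3 it called Tap1 (0.0494 and 0.0489).

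Across the 10 genes, 4 were called higher and 1 lower with G-CSF, where 11.8% of 14737 genes tested were called (4.93% higher and 6.91% lower). Of the log2 changes, 9 of 10 were positive, with a median of 0.64, against 0.01 over all genes.

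In combined marrow the heavy chain gene H2-D1 and H2-Bl were again higher than in untreated marrow and Tapbp was again lower, but H2-K1 and B2m were not. H2-D1 had 1752 and 1605 CPM in combined marrow, against 994 and 835 CPM in untreated marrow. The groups did not overlap, and the log2 change of H2-D1 was 0.88 ± 0.16 (adjusted p = 0.0145). Its adjusted p was 0.114 without combined replicate 1, 0.0592 without combined replicate 3 and 0.0837 without untreated replicate 2. H2-Bl had 47.3 and 51.6 CPM in combined marrow and no count in untreated marrow, at least 173-fold higher (adjusted p = 2.13e-05).

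Tapbp had 98.9 and 150 CPM in combined marrow, against 228 and 255 CPM in untreated marrow, with a log2 change of −0.96 ± 0.22 (adjusted p = 0.0307). That call was lost without combined replicate 1 (adjusted p = 0.207), G-CSF replicate 2 (0.0557), untreated replicate 1 (0.0699) or untreated replicate 2 (0.11). It was also lost in the fit of the 2 groups alone (0.0873), with limma on log2(TPM + 0.5) (0.0689) or log2(TPM + 0.1) (0.0506), and with the replicate number as a block (0.11). H2-K1 had 508 and 520 CPM in combined marrow and 499 and 511 CPM in untreated marrow, a log2 change of 0.02 with a normal 95% interval of −0.28 to 0.33. Such intervals use the normal quantile and are narrower than the edgeR test with few libraries would give. B2m had 566 and 661 CPM in combined marrow and 698 and 772 CPM in untreated marrow (−0.26, interval −0.61 to 0.09). Psmb8, at 68.3 and 86.2 CPM in combined marrow, was below the 108 CPM of both untreated libraries, but the test did not call it (−0.49 ± 0.21, adjusted p = 0.194). Of the 10 genes, 2 were called higher and 1 lower, against 7.72% of all genes called (3.17% higher and 4.55% lower), and their median log2 change was −0.12 (−0.01 over all genes).

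**Figure D2:**
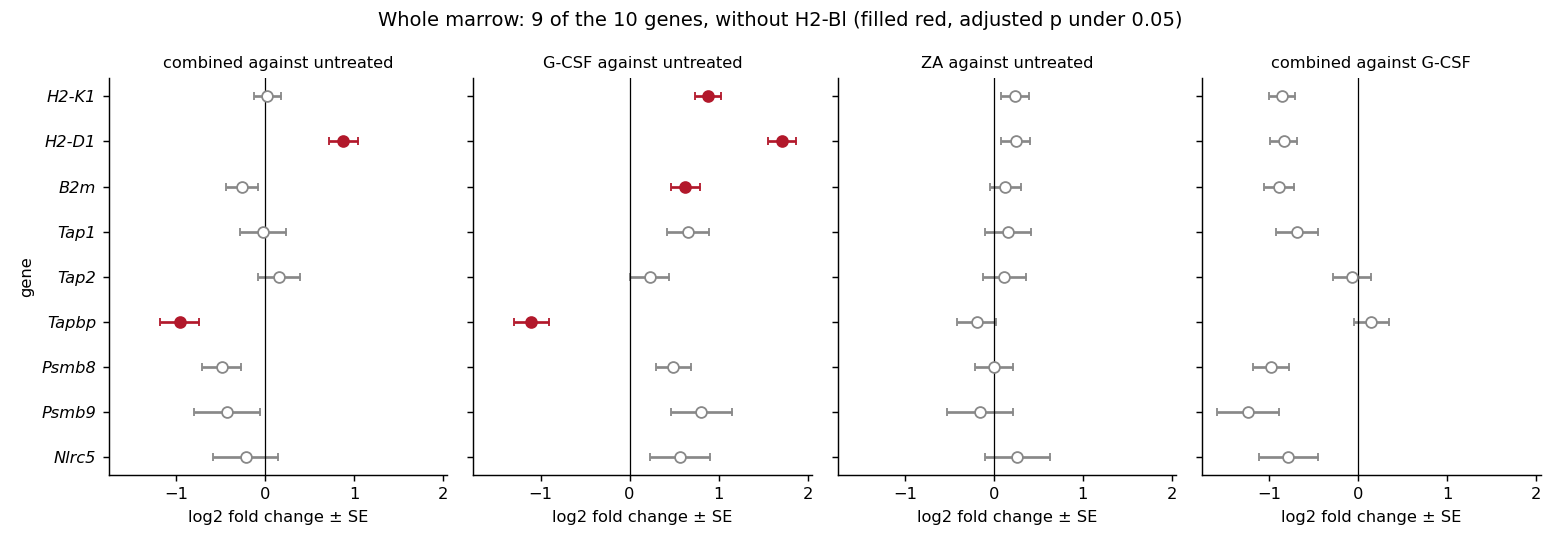
Log2 fold change (x axis, bars are ± SE) of 9 of the genes in whole marrow for combined, G-CSF and ZA against untreated and for combined against G-CSF, without H2-Bl, whose fold is only bounded; filled points were called. H2-D1 and Tapbp are called in combined and G-CSF marrow against untreated, H2-K1 and B2m in G-CSF marrow, and no gene in the panels for ZA or for combined against G-CSF.

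Combined marrow was also set against G-CSF marrow, which carry the same strain-related pattern of Eno1b and Gvin1. Both combined libraries lay below all 3 G-CSF libraries for 8 of the 10 genes, and none was called. How many of all genes separated in this way was not counted, so the 8 cannot be set against a background. Several of them also varied together over the marrow libraries (Pearson r 0.957 for B2m with Psmb8 and 0.938 for Psmb8 with Psmb9). Others did so less (0.170 for H2-Bl with Psmb8), and the 8 are not separate results. H2-K1 had 508 and 520 CPM in combined marrow, against 866 to 1048 CPM in G-CSF marrow (log2 change −0.86 ± 0.14, adjusted p = 0.141). H2-D1 had 1752 and 1605 CPM in combined marrow, against 2800 to 3340 CPM in G-CSF marrow (−0.84 ± 0.15, adjusted p = 0.172). H2-Bl, B2m, Tap1, Psmb8, Psmb9 and Nlrc5 also had both combined libraries below all 3 G-CSF libraries, with log2 changes of −0.68 to −1.24 and adjusted p-values of 0.172 to 0.461. Tap2 and Tapbp overlapped between the groups. The edgeR test called 1 of all genes (0.00679%), 1530 had an unadjusted p under 0.05, and the median log2 change was −0.81 over the 10 genes and −0.01 over all.

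The count of calls in that comparison depended on the tool. DESeq2 called 207 genes, and 6 of these 10 were among them, all lower in combined marrow: H2-K1, H2-D1, H2-Bl, B2m, Psmb8 and Psmb9 (adjusted p 5.85e-06 to 0.0271). With no filter on low counts edgeR called 557 of 28465 genes and 5 of the 10. A test of whether ZA and G-CSF together departed from the sum of their separate log2 changes gave the same picture: the edgeR fit called 1 gene in all (0.00679%; 1738 at an unadjusted p under 0.05) and none of these 10. For H2-K1 that departure was −1.09 ± 0.21 (adjusted p = 0.136) and for H2-D1 −1.08 ± 0.22 (adjusted p = 0.152). DESeq2 called it for H2-K1, H2-D1 and B2m (adjusted p 0.000427, 0.000506 and 0.01).

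ZA alone left no call among the 10 genes, where 5 of all genes tested were called (0.0339%; 1395 at an unadjusted p under 0.05, and 129 calls by DESeq2). H2-K1 had 561 and 630 CPM in ZA marrow and 499 and 511 CPM in untreated marrow, and H2-D1 had 1092 and 1076 CPM in ZA marrow and 994 and 835 CPM in untreated marrow. Both ZA libraries lay above both untreated ones for each gene, by 0.24 and 0.25 on the log2 scale (adjusted p = 0.636 and 0.643). B2m, at 835 and 771 CPM in ZA marrow, overlapped untreated marrow. H2-Bl had 1 and 4 counts in the ZA libraries and 0 in the untreated ones, too few to compare. Between combined and ZA marrow, edgeR called H2-Bl among the 10 genes, with 931 counts in combined and 5 in ZA marrow (ratio 158, 95% exact Poisson interval 67.6 to 489, adjusted p = 1.93e-05), where 4.33% of all genes were called (1.87% higher and 2.46% lower). In that comparison the log2 difference was 0.63 ± 0.16 for H2-D1 (adjusted p = 0.0684) and −0.77 ± 0.22 for Tapbp (adjusted p = 0.0931), neither called by edgeR with all 9 libraries and the low-count filter. DESeq2 called both (adjusted p = 0.00146 and 0.0259), edgeR with no filter called Tapbp (0.023), and edgeR without G-CSF replicate 3 called H2-D1 (0.0472).

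The order of the levels in TPM differed between the groups. In untreated marrow replicate 2, B2m was highest at 507 TPM, then H2-D1 at 298 and H2-K1 at 215, with Tapbp at 74.1, Psmb8 at 55.3, Psmb9 at 37.1, Tap2 at 25.9, Tap1 at 20.02 and Nlrc5 at 2.62 TPM. In G-CSF marrow H2-D1 was highest at 1300 ± 268 TPM, above B2m at 892 ± 63.6 and H2-K1 at 475 ± 103 (SD, n = 3). Psmb8 (92.2 ± 10.2) and Psmb9 (91.4 ± 26.3) did not differ beyond their spread. Tap1 (41.2 ± 1.43) lay above Tapbp (39.1 ± 0.364) in all 3 libraries, Tap2 (38.7 ± 6.50) overlapped both, and Nlrc5 was lowest at 3.41 ± 0.163. In combined marrow H2-D1 again led at 913 ± 6.70 TPM, with B2m at 618 ± 101 and H2-K1 at 330 ± 23.4 (n = 2). In ZA marrow B2m led at 479 ± 0.863 TPM, above H2-D1 at 351 ± 16.7 and H2-K1 at 228 ± 31.9.

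Ratios within a library do not depend on its total. The TPM ratio of H2-D1 to H2-K1 was 2.93 and 2.62 in combined marrow and 2.74, 2.78 and 2.70 in G-CSF marrow, against 1.65 and 1.45 in ZA marrow and 1.69 and 1.39 in untreated marrow. The libraries given G-CSF, alone or with ZA, stood apart from the rest. The ratio of the inducible subunit Psmb8 to Psmb5, the constitutive subunit it can replace, was 1.69 and 2.20 in combined and 2.24, 2.60 and 2.24 in G-CSF marrow, against 1.06 and 1.11 in ZA marrow and 0.843 and 1.26 in untreated marrow. In combined marrow this higher ratio came with a lower Psmb5 (log2 change −1.43 against untreated, edgeR adjusted p = 0.0117). Psmb8 itself was not higher there (−0.49, not called). For Psmb9 to Psmb6 the combined libraries (0.573 and 1.08) overlapped the untreated ones (0.702 and 0.756), while G-CSF marrow had 1.58, 1.47 and 0.939. These ratios are descriptions, and no test was run on them.

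**Figure D3:**
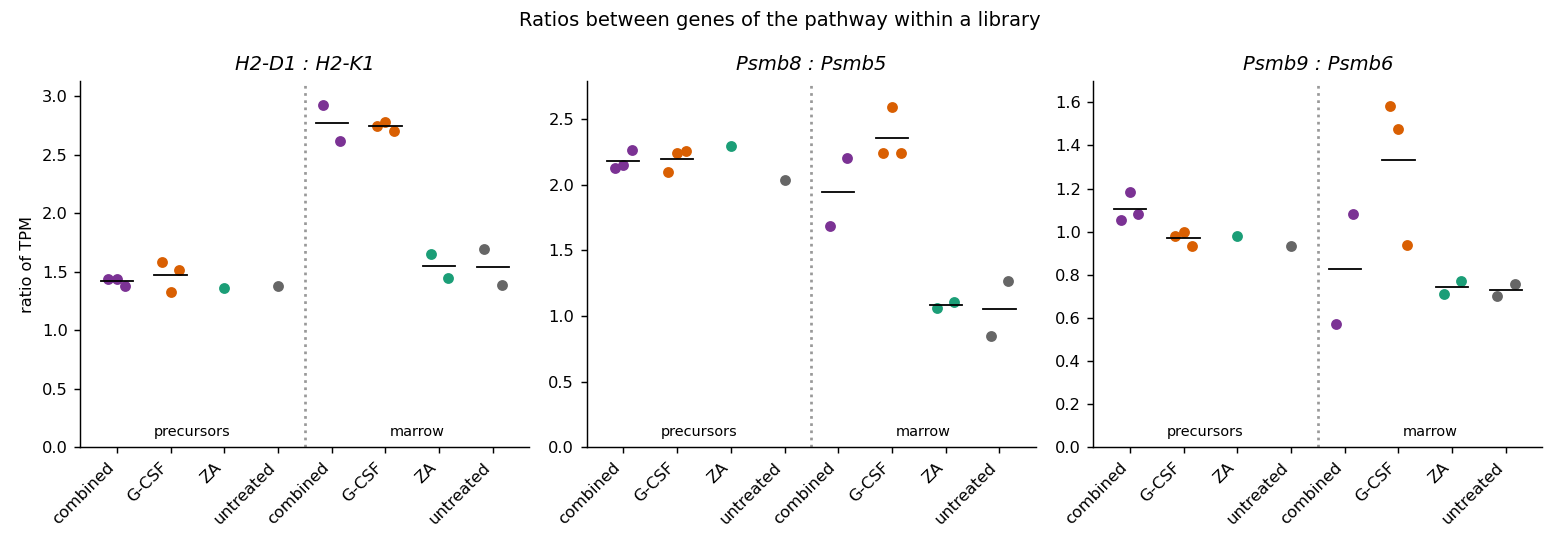
TPM ratios within each library (y axis) for H2-D1 to H2-K1, Psmb8 to Psmb5 and Psmb9 to Psmb6, 1 point per library by group. The H2-D1 to H2-K1 ratio is 2.62 to 2.93 in combined and G-CSF marrow, against 1.39 to 1.69 in ZA and untreated marrow and 1.32 to 1.58 in precursors.

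In sorted precursors the same genes were nearly flat across treatments. H2-K1 had 608, 616 and 609 CPM with both agents, 566, 595 and 618 CPM with G-CSF, 644 CPM with ZA and 633 CPM without treatment. H2-D1 had 1049, 1061 and 1006 CPM with both agents, 1071, 943 and 1123 CPM with G-CSF, 1047 CPM with ZA and 1042 CPM without treatment. For H2-K1 all 6 libraries with G-CSF lay below both without it, and for H2-D1 they lay on both sides. H2-Ea-ps and Ifi202b are among the genes known to differ between mouse strains. H2-Ea-ps was at 0 TPM in the run 1 precursors of every treatment, and Ifi202b in those of every treatment but the combined one. G-CSF marrow held 78 and 389 counts of these genes. Between precursors and marrow given G-CSF, genetic background and cell source therefore cannot be told apart.

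B2m ran from 847 to 972 CPM over the 8 precursor libraries (median 907), Tapbp from 241 to 292 (median 283), Psmb8 from 210 to 245 (median 212) and Psmb9 from 79.3 to 91.3 (median 85.2). The pump subunits ranged from 133 to 177 CPM for Tap1 (median 164) and from 70.9 to 106 CPM for Tap2 (median 91.3). Nlrc5 ran from 21.4 to 48.1 CPM (median 37.7), with its lowest and highest values both in the combined group. H2-Bl had 1 to 11 counts per library, at most 0.356 CPM.

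Combined precursors were tested against G-CSF precursors, and the 6 precursor libraries with G-CSF against the 2 without it, with no call among 18779 genes in either (0%; 1306 and 682 at an unadjusted p under 0.05). DESeq2 called 91 and 23 genes, none of them among these 10. For H2-D1 the log2 difference of combined from G-CSF was −0.0085 with a normal 95% interval of −0.15 to 0.13. That with against without G-CSF was −0.0054 with an interval of −0.15 to 0.14. These intervals too are narrower than the edgeR test would give. For H2-K1, precursors with against without G-CSF differed by −0.09 (interval −0.20 to 0.02), which was not called. ZA and untreated precursors had 1 library each, so neither was tested on its own.

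**Figure D4:**
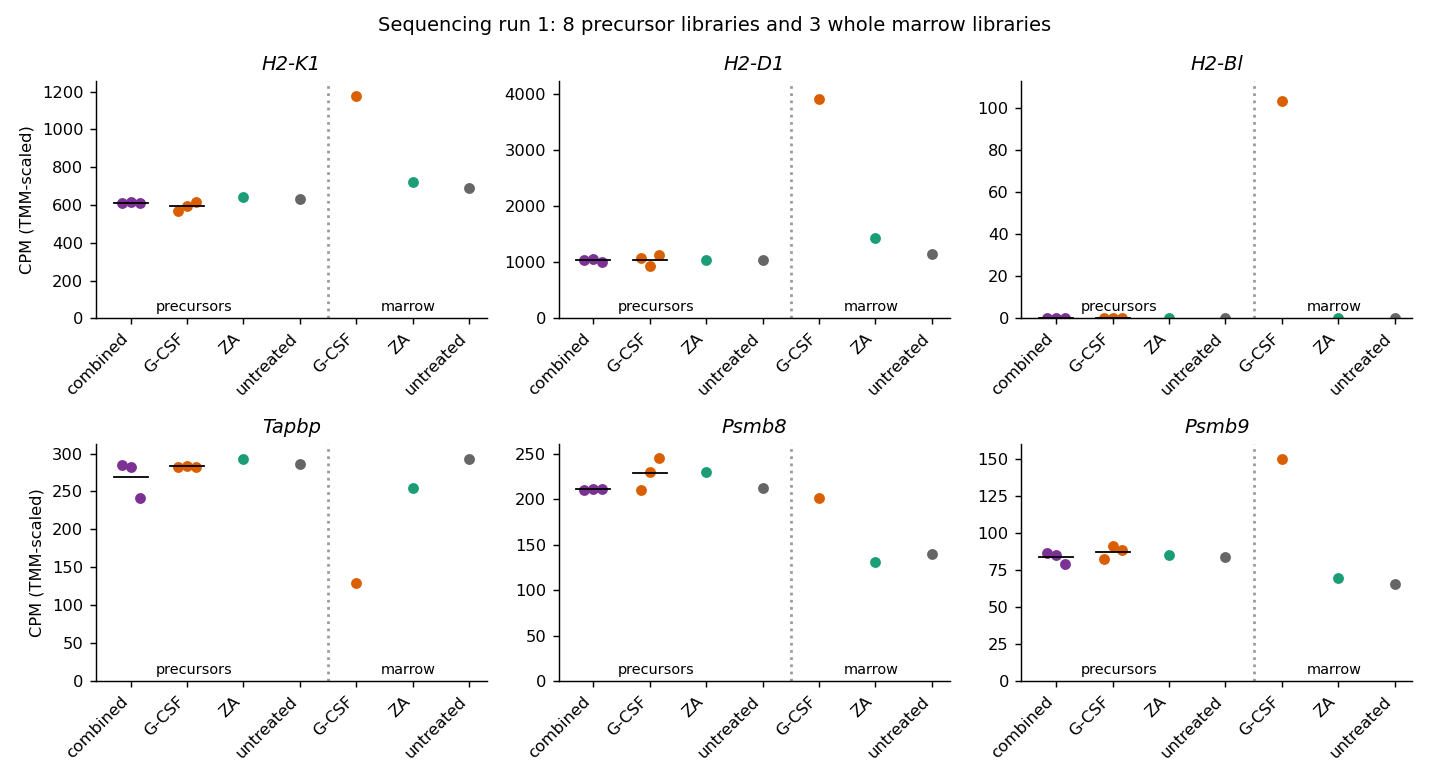
Levels of H2-K1, H2-D1, H2-Bl, Tapbp, Psmb8 and Psmb9 (CPM, y axis) in the run 1 libraries, 1 point per library. Shown are precursors of the 4 treatments and the 3 whole marrow libraries. H2-D1 spans 943 to 1123 CPM in the 8 precursor libraries, and H2-Bl exceeds 1 CPM in the G-CSF marrow library alone.

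Precursors and whole marrow were compared within run 1 and within treatments, with 5 precursor libraries against 3 of marrow. H2-D1 was lower in precursors, with a log2 difference of −1.06 ± 0.30 (adjusted p = 0.0254), as was H2-K1 (−0.54 ± 0.17, adjusted p = 0.0375), and Psmb8 was higher (0.46 ± 0.14, adjusted p = 0.0312). The heavy chain differences rested on the G-CSF marrow library, which had 3921 CPM of H2-D1 and 1177 CPM of H2-K1. Without it the differences were −0.32 (adjusted p = 0.109) and −0.17 (adjusted p = 0.231), and the Tap1 difference was 0.70 (adjusted p = 0.00677). These 3 calls stand among 9 members tested, where 43.8% of 17208 genes were called (20.4% higher and 23.3% lower), and each of the 3 was lost on leaving out at least 1 other library. H2-Bl did not pass the filter in that fit. The G-CSF difference in marrow was also set against that in precursors of run 1, in a fit chosen after the data were seen that called 3% of all genes (1.03% higher and 1.96% lower in marrow). Marrow had 1 library per treatment there, so the spread came from the precursor replicates alone and the lone marrow libraries were assumed to vary like them. For H2-D1 the G-CSF difference in marrow exceeded that in precursors by 1.62 on the log2 scale, which restates the levels given above and is no independent support for them. The sort label was met by the markers: all 9 monocyte markers were higher in precursors, and all 10 neutrophil, 9 erythroid, 8 B cell and 9 T and NK cell markers were lower.

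The other genes of the pathway were counted in marrow beside the 11.8% of all genes called with G-CSF and 7.72% called in combined marrow. Among 24 class I assembly, trimming and regulatory genes, none was called higher and 3 lower with G-CSF (median −0.16): Lnpep, an endosomal peptide-trimming enzyme (−1.64), Irf2 (−0.84), an interferon-response factor, and Ifngr1, an interferon-gamma receptor chain (−0.70). In combined marrow 2 were lower, Lnpep (−1.46) and the chaperone Hspa5 (−0.83), with a median of −0.44. None of 16 constitutive proteasome genes was called with G-CSF (median 0.16), and 2 were lower in combined marrow, Psmb5 (−1.43) and Psma7 (−0.86). In precursors against marrow, where 43.8% of all genes were called (20.4% higher and 23.3% lower), 11 of the 24 assembly genes were higher and 3 lower.

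The nonclassical and other class I genes went in both directions. With G-CSF, 5 of 17 tested were higher and 4 lower (median 0.30, the same with a gene absent from untreated marrow placed at its lower bound). The shares of all genes were 4.93% higher and 6.91% lower. H2-Q2 had 25.1 to 27.6 CPM in G-CSF marrow, against 0 to 0.226 CPM in untreated marrow, and H2-Q1 had 8.23 to 11.8 CPM in G-CSF marrow, against 0 to 0.327 CPM in untreated marrow. H2-T23, which encodes Qa-1, a ligand of NK cell receptors, had 35.4 to 44.99 CPM in G-CSF marrow, against 206 to 254 CPM in untreated marrow (log2 change −2.50, adjusted p = 3.9e-05). H2-Q2 was at 17.2 CPM in both combined libraries and at 0 to 0.113 CPM in ZA marrow, and H2-T23 at 33.2 to 39.8 CPM in combined marrow and 206 to 226 CPM in ZA marrow. Neither gene overlapped between libraries with and without G-CSF.

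Neighbouring genes along the MHC region were counted beside the same 11.8%. Of 18 neighbouring genes without a role in class I presentation, 2 were lower with G-CSF and none higher (median 0.10): Rps18, a ribosomal protein gene that has near-identical copies elsewhere (−1.99), and Zbtb22 (−0.79), which overlaps Tapbp. Of 10 class II genes 1 was higher and 3 lower, among them H2-Eb1 at 4.40 to 7.13 CPM in G-CSF marrow and 130 to 157 CPM in untreated marrow (−4.66), H2-Ob (−3.38) and the class II transactivator Ciita (−1.17). The gene called higher was H2-Ea-ps, named after its values were seen, with 1.45 to 3.31 CPM in G-CSF marrow and 0 in untreated and ZA marrow. In C57BL/6 mice this gene is known to be silenced by a promoter deletion. Of 9 strain-related genes tested, which include H2-Ea-ps, 4 were higher and 4 lower.

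**Figure D5:**
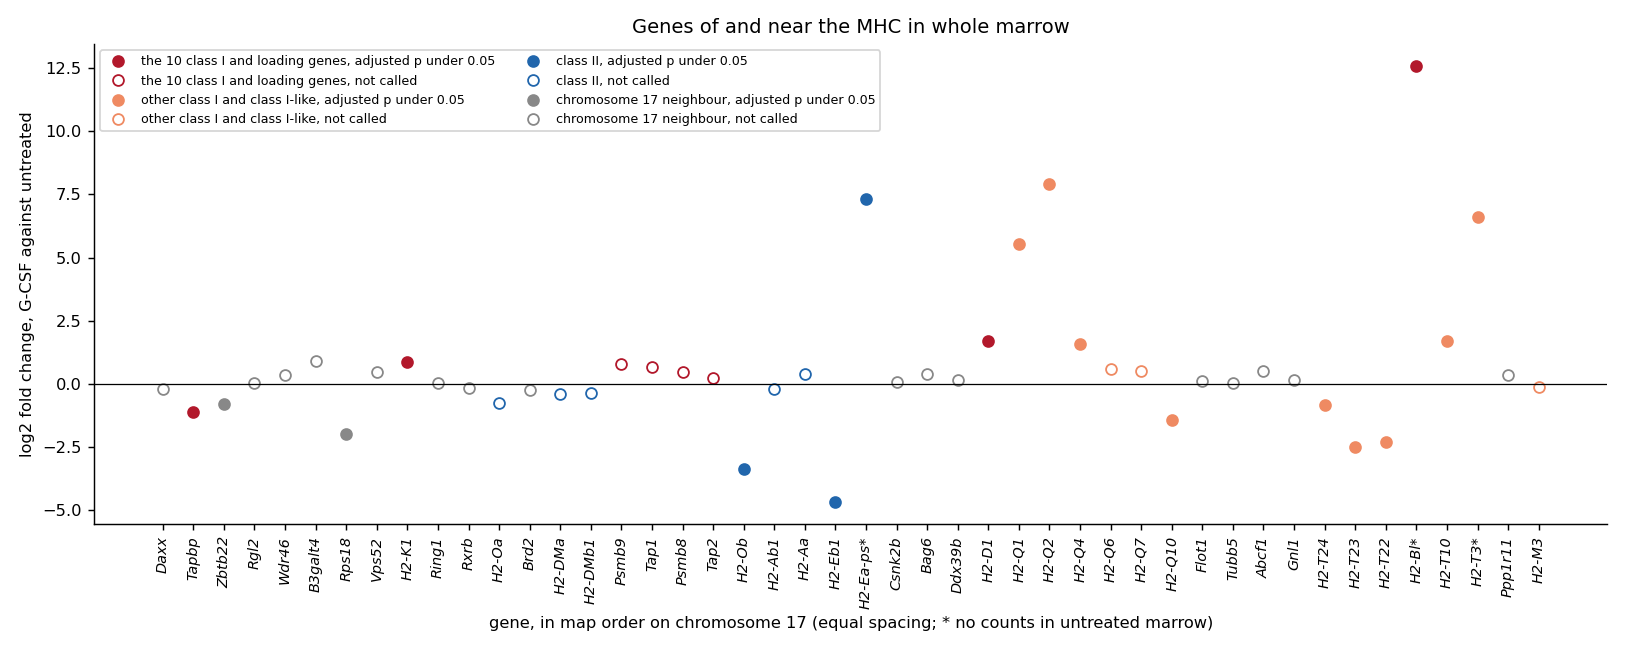
Log2 change with G-CSF against untreated marrow (y axis) of 46 genes of the MHC region in their order along chromosome 17 (x axis), marked by gene group, filled where called, and starred where untreated marrow had no count, so that the plotted height depends on the prior count. The class I genes H2-Q1, H2-Q2, H2-Bl and H2-T3 are far above 0 and H2-T23, H2-T22 and H2-Eb1 far below it, while 16 of the 18 neighbours were not called.

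Interferon-stimulated genes, which share inducers with the class I genes, were lower in G-CSF marrow where called, with 1 exception. With G-CSF, 10 of 24 were lower and 1 higher (median −0.80), led by Rsad2 (−2.27), Isg15 (−2.25) and Mx1 (−2.22). Of all genes, 6.91% were lower and 4.93% higher. Isg15 had 16.5 to 47.8 CPM in G-CSF marrow, against 156 to 170 CPM in untreated marrow. In combined marrow 11 were lower and 1 higher, beside 4.55% and 3.17% of all genes. H2-K1, H2-D1 and B2m stood higher with G-CSF in the same libraries in which these antiviral genes stood lower.

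Markers of several marrow cell types differed along with the treatments. Summed over each list, monocyte markers were at 166 to 205 TPM in combined and 177 to 209 TPM in G-CSF marrow, against 473 to 510 TPM in ZA marrow and 261 to 594 TPM in untreated marrow. Progenitor markers were at 1690 to 1780 TPM in combined and 1890 to 2020 TPM in G-CSF marrow, against 986 to 1040 TPM in ZA and 432 to 730 TPM in untreated marrow, with no overlap. T and NK cell markers were at 87.3 to 91.2 TPM in combined and 116 to 135 TPM in G-CSF marrow, against 48.2 to 57.6 TPM in ZA and 30.2 to 49.3 TPM in untreated marrow. Their median log2 change against untreated was −1.31 in combined and −0.44 in G-CSF marrow, so the sum does not stand for most of them. For progenitor markers that median was 0.26 and 0.43. Sums in TPM also rose for genes that were not called. The 16 constitutive proteasome genes summed to 740 to 1170 TPM in untreated and 1730 to 1950 TPM in G-CSF marrow. Neutrophil markers (39300 to 51100 TPM in combined and G-CSF marrow, against 20300 to 47100 TPM in ZA and untreated marrow) and erythroid markers (222000 to 298000 TPM in combined and G-CSF marrow, against 249000 to 406000 TPM in ZA and untreated marrow) overlapped, as did B cell markers (290 to 591 TPM in combined and G-CSF marrow, against 161 to 297 TPM in ZA and untreated marrow). No marker of these lists was at 0 throughout a group. With G-CSF, 5 of 9 monocyte and 5 of 9 erythroid markers were lower, 4 of 8 progenitor markers were higher, and 3 of 9 T and NK markers were higher and 4 lower. Of all genes, 4.93% were called higher and 6.91% lower. The part of these shifts in the class I values was not tested. In bulk samples a change in the number of cells of a type and a change of RNA per cell cannot be told apart.

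Among the 9 marrow libraries, H2-D1 tracked H2-Bl (Pearson r 0.92 on log2 CPM) and ran against Tapbp (r −0.90), and H2-K1 with H2-D1 had r 0.85, against 0.13 over the 8 precursor libraries. The libraries of a group share treatment, so these are descriptions. Over 9939 genes, those most like H2-K1 across the 9 libraries were Glipr2 (r 0.964), Ctsk (0.952) and Lhpp (0.940). Those most like H2-Bl were Rps26-ps1 (0.996), Rps2-ps10 (0.995) and Lyz1 (0.995), and those most like Nlrc5 were Ctr9 (0.895), Scd2 (0.885) and Sp110 (0.881).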

How the data were processed

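RNA sequencing tables of whole marrow and sorted precursors were analysed as deposited. The deposited estimated counts and TPM carry Ensembl gene identifiers, and the submitters' processing notes name Salmon, DESeq2 1.16.1 and mm10; an annotation release is not given in the sources used here. Since the deposited estimated counts have decimals, they were rounded to whole numbers. The TPM deposited by the authors were used for ratios and levels between genes. Symbols and positions came from GENCODE vM21, which matched 98.9% of marrow and 99% of precursor identifiers. There were 0 unused per-sample columns.

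Counts were tested with edgeR 4.0.16 in R 4.3.3 (quasi-likelihood, robust, filterByExpr with a minimum count of 10 and total of 15, TMM), with 1 model of the 4 marrow groups, 1 of the 4 run 1 precursor groups and 1 of precursors against marrow with treatment as a term. The threshold was a Benjamini-Hochberg adjusted p under 0.05 over all genes tested. A count of 0 was allowed up to 3 counts over a group. Alternatives were DESeq2 1.42.0, its size factors in edgeR, no filter, limma 3.58.1 on log2(TPM + 0.5) or log2(TPM + 0.1), the replicate number as a block, the compared groups alone, other libraries of run 2, and each library left out.

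On counts simulated for marrow G-CSF against untreated over 14411 genes, 27% of 100 genes changed by 1 on the log2 scale and 88% of 100 changed by 2 were called, with 0 of wrong sign and 5 unchanged genes called. Same-numbered samples did not deviate together (correlations −0.039 to 0.11 in marrow and −0.032 to −0.015 in precursors), so the numbers were not treated as pairs.

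The members and gene lists were chosen with earlier results of these data known. All 10 members are named in the comparisons; from each list up to 3 called genes with the largest log2 change and at least 5 CPM in the higher group are named; and for H2-K1, H2-Bl and Nlrc5 the 3 genes of highest correlation.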

Additional observations from a re-analysis of the deposited data

Results flagged for a closer look

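The G-CSF difference in marrow was set against that in precursors within run 1, a test chosen after the data were seen, with edgeR over 11 libraries. G-CSF was compared with the mean of untreated and ZA in each cell source. The log2 difference in marrow exceeded that in precursors by 0.84 for H2-K1, 1.62 for H2-D1, 0.60 for B2m and 1.10 for Psmb9. It did so by 0.87 for Tap1, 0.52 for Psmb8 and 0.27 for Nlrc5. For Tapbp it was −1.05 and for Tap2 −0.23. The fitted value of 11.22 for H2-Bl depends on the prior count, since the untreated marrow library had no count, and is no bound. Marrow had 1 library per treatment in this fit, so the spread came from the precursor replicates alone and no p-value is given. These differences restate the levels given above and are no independent support for them. The marrow libraries also differ in the strain-related genes, so treatment and genetic background cannot be told apart.

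Run 2 libraries labelled precursor stood apart in H2-Bl, which was near 0 in run 1 precursors. Combined replicate 3 had 29.5 TPM, G-CSF replicate 1 had 13.5 TPM and G-CSF replicate 2 had 57.1 TPM. The library labelled combined replicate 3 was closest to G-CSF marrow (r 0.863), as was that labelled G-CSF replicate 2 (r 0.939), while that labelled G-CSF replicate 1 was closest to its own run 1 library (r 0.889). Within run 2, the libraries labelled G-CSF precursor had 1 far from the rest in H2-D1 (1072 TPM), H2-Bl (57.1 TPM) and Tapbp (41.1 TPM, the lowest), all in replicate 2. One such gap also occurred for H2-Bl among those labelled combined (29.5 TPM). Among those labelled ZA, H2-Bl was at 0 TPM in all but replicate 6 (0.189 TPM). Any value above 0 would stand apart there, so that value near the floor is not counted as a gap. Chance gives such a gap in about 1 group in 20 if values scatter normally, which H2-Bl values near 0 need not do. The gaps in the G-CSF group are not separate events, since those of H2-D1, H2-Bl and Tapbp come from 1 library. The cause was not tested.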

How the results depend on the processing

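Counts of called genes moved with the setting. DESeq2 called 129 genes for ZA against untreated, 1758 for combined against untreated, 207 for combined against G-CSF, 1024 for combined against ZA, 257 for the ZA and G-CSF interaction, and 91 and 23 for the precursor comparisons of combined against G-CSF and with against without G-CSF. With no filter on low counts the numbers were 3206 for G-CSF against untreated, 634 for ZA against untreated, 2540 for combined against untreated, 557 for combined against G-CSF, 1587 for combined against ZA, 746 for the interaction, and in precursors 1 for combined against G-CSF and 2 for with against without G-CSF. On log2(TPM + 0.5), limma called 9 for ZA, 2 for combined against G-CSF, 6 for the interaction and 2 for precursors with against without G-CSF; on log2(TPM + 0.1) it called 15 for ZA, 3 for combined against G-CSF, 3 for the interaction and 4 for those precursors. The compared groups alone gave 2 for ZA, 748 for combined against untreated and 5 for combined against G-CSF. Leaving out 1 library at a time gave 836 to 1706 calls for G-CSF (lowest without untreated replicate 2), 0 to 23 for ZA, 296 to 1353 for combined against untreated, 0 to 18 for combined against G-CSF, 251 to 713 for combined against ZA, 0 to 10 for the interaction, and 0 to 1 for precursors with against without G-CSF. Run 2 libraries gave 0 calls for precursors against marrow.

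With the replicate number as a block the calls were 0 for ZA, 481 for combined against untreated, 0 for combined against G-CSF, 387 for combined against ZA, 3 for the interaction and 3298 for precursors against marrow. The numbers do not pair the samples, so a call lost under the block is not a weaker effect. For combined against untreated the block gave H2-D1 an adjusted p of 0.0504 and Tapbp 0.11.

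Outside the fit of run 2 libraries alone, signs turned only for log2 differences that were not called. Some run 2 libraries go against their labels. In ZA against untreated, Psmb8 was 0.049 with limma at 0.1, 0.10 at 0.5, 0.0089 with no filter, 0.052 with the replicate block and 0.0081 with the groups alone, and Psmb9 was 0.0048 with the block. In combined against untreated, H2-K1 was −0.061 with the block, and Tap1 was 0.084 with limma at 0.5, 0.018 with no filter and 0.013 with the groups alone. In precursors, limma at 0.5 gave −0.0089 for H2-K1 in combined against G-CSF and −0.0061 for Psmb9 with against without G-CSF. With against without G-CSF the block gave 0.019 for B2m and 0.018 for Psmb8. For that comparison 17 libraries of both runs gave 0.030 for Tap1, −0.029 for Tap2, 0.083 for Tapbp and 0.28 for Psmb8. Those without G-CSF included run 2 libraries labelled precursor that were closest to whole marrow. They were untreated replicate 7 (r 0.875), ZA replicate 5 (r 0.934) and ZA replicate 7 (r 0.890). In run 2, precursors against marrow was 0.16 for H2-K1, 0.37 for H2-D1, 0.13 for B2m, −0.14 for Tap1, −0.11 for Psmb8, 0.0077 for Psmb9, −0.43 for Nlrc5, −0.22 for Rgl2, 0.64 for H2-Aa, −0.11 for Psma7, 1.72 for Rsad2, 0.79 for H2-Q10 and 3.17 for Eno1b. Leave-one-out ranges that crossed 0 were, for ZA, −0.19 to 0.96 (Nlrc5), −0.023 to 0.015 (Psmb8), −0.39 to 0.098 (Psmb9) and −0.33 to 0.46 (Tap2). For combined against untreated they were −0.66 to 0.48 (Nlrc5) and −0.50 to 0.33 (Tap1). For combined against G-CSF they were −0.16 to 0.0073 (Tap2) and −0.18 to 0.41 (Tapbp). For combined against ZA they were −0.64 to 0.027 (Psmb9), −0.66 to 0.17 (Tap1) and −0.31 to 0.49 (Tap2). For the interaction they were −0.54 to 0.26 (Tap2), and for precursors against marrow −0.39 to 0.29 (Psmb9). For combined against G-CSF precursors they were −0.078 to 0.045 (H2-D1), −0.30 to 0.23 (Nlrc5), −0.11 to 0.048 (Tap1) and −0.11 to 0.0044 (Tapbp). With against without G-CSF they were −0.053 to 0.018 (B2m), −0.033 to 0.028 (H2-D1), −0.20 to 0.32 (Nlrc5), −0.066 to 0.042 (Psmb8), −0.00073 to 0.036 (Psmb9) and −0.11 to 0.33 (Tap2). The cause of these changes was not tested.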
